A study of Mus musculus with 10 samples.

Results

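The mitochondrial genome of the mouse encodes 37 genes whose symbols start with mt- in the count table, and all 37 were taken as members by that prefix, out of 53167 listed genes. They fall into 13 protein-coding genes, 2 ribosomal RNA genes and 22 transfer RNA genes. Counts came from wild-type primary epithelial cells of the mouse mammary gland grown in DMEM with fetal bovine serum (FBS). The BGN group (n = 5) received the matrix proteoglycan biglycan as added protein at 100 ng/mL, and the Control group (n = 5) received none. The labels state neither the length of stimulation nor an animal or culture for any replicate, so the spread behind each p-value is that of these samples and may be technical. Library totals lay between 18292624 and 21820560 counts. All 15 mammary epithelial markers examined had counts, with Epcam averaging 1119 CPM (counts per 1e6 library counts) in BGN and 1136 CPM in Control. Control replicate 5 had the lowest level of most tested members, and results that rest on it are given with and without it.

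Mitochondrial DNA is transcribed from both strands into long precursors, which are cut at the transfer RNAs to free the messenger and ribosomal RNAs. Most of the messengers then receive short poly(A) tails, while transfer RNAs carry none, so poly-A selected libraries sample the 3 classes unequally. The 13 protein-coding genes encode subunits of respiratory complexes I, III and IV and of the ATP synthase, complex V. The remaining subunits, the polymerase and the RNA-handling proteins come from nuclear genes.

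Pieces of mitochondrial DNA are also present in nuclear chromosomes, and reads from such a piece and from the mitochondrial gene can be indistinguishable. The mt transcripts were therefore compared with all other GENCODE M21 transcripts (build GRCm38; the counts use GRCm39, so no coordinates are given). Near-identical matches, of at least 99% over at least 100 bases, were found for 7 protein-coding genes, each to a different unprocessed pseudogene, and all 7 pseudogenes lie on chromosome 1. The start of mt-Atp6, which encodes subunit a of the ATP synthase, is shown with that of Gm10925, because the pair cannot be told apart in any of the 678 aligned bases.
mt-Atp6: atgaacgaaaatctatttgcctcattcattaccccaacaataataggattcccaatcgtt
Gm10925: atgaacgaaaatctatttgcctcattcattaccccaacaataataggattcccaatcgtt

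The first 60 bases of the complex I gene mt-Nd3 and of its copy Gm28438 hold the single difference (T3C, counted from the first base of mt-Nd3) among 345 aligned bases. The differing base is in capitals.
mt-Nd3: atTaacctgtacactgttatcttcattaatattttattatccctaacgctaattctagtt
Gm28438: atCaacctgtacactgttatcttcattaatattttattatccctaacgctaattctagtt

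A more diverged copy differs at many bases. Gm13340, on chromosome 2, spans all 1545 bases of mt-Co1 at 97.6% identity with 37 mismatches, and 3 of them, in capitals, fall in the first 120 bases.
mt-Co1: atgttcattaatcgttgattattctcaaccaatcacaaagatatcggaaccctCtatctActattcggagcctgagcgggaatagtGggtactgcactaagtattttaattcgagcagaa
Gm13340: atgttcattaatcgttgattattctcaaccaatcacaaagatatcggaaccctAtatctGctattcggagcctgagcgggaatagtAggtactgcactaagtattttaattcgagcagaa

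The 13 protein-coding genes differed widely in assigned level, and the 6 lowest are consecutive among them on the mitochondrial genome. These levels belong to annotated genes and need not be those of separate RNAs. On the same strand, mt-Atp8 and mt-Atp6 share 43 bases, and mt-Nd4 and mt-Nd4l share 7. Levels are given here as CPM scaled by trimmed mean of M-values (TMM) per kb of annotated length. The highest was mt-Co1, the catalytic subunit of cytochrome oxidase (complex IV), at 6554 ± 308 in BGN and 5599 ± 1167 CPM per kb in Control (SD, n = 5 each, as for all group values). It was followed by mt-Cytb, the cytochrome b gene of complex III, at 2865 ± 177 in BGN and 2346 ± 618 CPM per kb in Control. The complex I genes mt-Nd1, mt-Nd2, mt-Nd5, mt-Nd4 and mt-Nd6 came next in that order, between 2163 ± 123 and 886 ± 31.6 CPM per kb in BGN and between 1847 ± 477 and 736 ± 200 CPM per kb in Control. Every neighbouring pair in this upper part, down to mt-Nd6 over mt-Rnr2, kept its order in all 10 libraries.

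The lower part held mt-Co2, mt-Atp6, mt-Co3, mt-Atp8, mt-Nd3 and mt-Nd4l. The complex IV gene mt-Co2 led it at 49.3 ± 4.65 in BGN and 39.99 ± 7.69 CPM per kb in Control. At the end stood mt-Nd4l, a small complex I subunit, at 2.00 ± 0.971 in BGN and 1.71 ± 0.749 CPM per kb in Control. The order of mt-Atp6 over mt-Co3 held in 7 of 10 libraries, and those of mt-Atp8 over mt-Nd3 and of mt-Nd3 over mt-Nd4l in 9 of 10, so these neighbours were not separated beyond their spread. In the upper part, 31.3% of the bases of mt-Co1 and 63.6% of those of mt-Nd4 have a near-identical copy.

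For 5 of the 6 low genes, at least 98.99% of the bases lie in a near-identical pseudogene. The copies are Gm28661 for mt-Co2, Gm10925 for mt-Atp6, Gm28437 for mt-Co3, Gm28438 for mt-Nd3 and Gm10222 for mt-Nd4l, the last found by the sequence search after the data were seen. These 5 genes together gave 0.345% of the counts on mt protein-coding genes over the 10 libraries. The low gene without an annotated copy is mt-Atp8. Apart from 43 bases that it shares with mt-Atp6, it lies in the 233 bases between the parts of mt-Co2 and mt-Atp6 that have copies, and the copies Gm28661 and Gm10925 are also 233 bases apart on chromosome 1. How reads with several equally good alignments were counted is not given in the sources used here. The levels of these 6 genes are therefore uncertain, and the part of the copies in them was not tested. Of the 1545 bases of mt-Co1 1062, and of the 1378 of mt-Nd4 502, lie outside a near-identical copy. Their levels were taken per full length and are uncertain for the same reason, as is the place of mt-Nd4 in the order.

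Counts were assigned to the pseudogenes as well. Over the 10 libraries Gm10925 had 6825 counts, against 3406 for mt-Atp6, and its ratio to the mitochondrial gene ran from 181 to 233 counts per 100. Gm28661 had 2794 counts, Gm28437 2770, Gm28438 145 and Gm10222 135, against 6007 for mt-Co2, 3723 for mt-Co3, 189 for mt-Nd3 and 110 for mt-Nd4l. For the partly copied genes the pseudogene counts were small beside the mitochondrial ones, with 1428 for Gm28439 against 251528 for mt-Nd4 and 1477 for Gm29216 against 1847913 for mt-Co1.

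**Figure D1:**
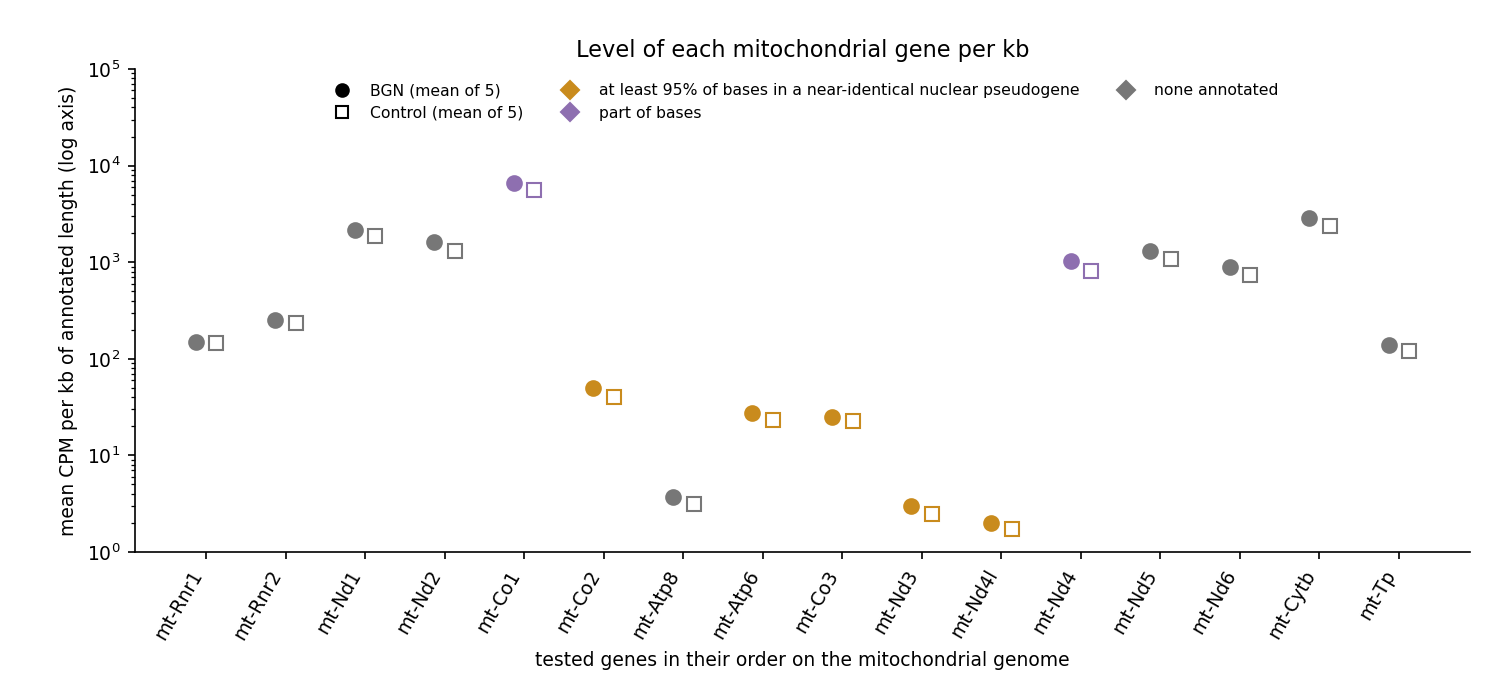
Mean CPM per kb of annotated length (log axis) of the 16 tested mitochondrial genes, in their order on the mitochondrial genome. Filled circles are BGN and open squares Control (means of 5 libraries), coloured by the share of bases in a near-identical nuclear pseudogene. The 6 neighbouring genes from mt-Co2 to mt-Nd4l reach at most 49.3 CPM per kb in BGN, while the 7 other protein-coding genes lie at 736 CPM per kb or above in both groups.

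Mitochondrial messengers had higher mean levels in BGN than in Control, but no member passed the test. Of the 37 members 16 passed the filter on low counts, namely the 13 protein-coding genes, both ribosomal RNAs and the transfer RNA gene mt-Tp. At an adjusted p under 0.05 in edgeR's quasi-likelihood test (Benjamini-Hochberg over 14415 genes) 0 of the 16 were called, as were 0% of all tested genes, and the smallest adjusted p of a member was 0.945. At an unadjusted p under 0.05 there was 1 member, mt-Co2, which was higher in BGN. Of all tested genes 4.81% were under that p, and 2.43% were so with higher values in BGN. DESeq2 and limma-voom also called 0 members and 0 of all tested genes, with 1 and 4 members at an unadjusted p under 0.05, as were 4.59% and 5.61% of all tested genes in those fits. No member had groups without overlap, a state that 0.375% of the tested genes reached with BGN above Control and 0.354% with BGN below.

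All 13 protein-coding estimates lay above 0, with a median log2 fold change (BGN over Control) of 0.26 and a range of 0.14 to 0.33, while the median of all tested genes was -0.0040 and 48.0% of them lay above 0. These genes are cut from shared precursors and vary together between libraries, so the 13 estimates are not independent. Control replicate 5 decided much of their size. Without it the median was 0.11, mt-Co3 stood at -0.0011, and the other 12 estimates lay between 0.027 and 0.20; 0 members were called (smallest adjusted p = 0.896 by edgeR). RNA of the whole culture was sequenced, so fewer mitochondria-rich cells and less mitochondrial RNA per cell cannot be told apart.

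Complex I subunits made up 7 of the 13. The membrane subunit gene mt-Nd4 had the largest estimate of all, with 1372, 1451, 1341, 1469 and 1477 CPM in BGN replicates 1 to 5, and 1133, 1098, 1295, 1460 and 662 CPM in Control replicates 1 to 5. In 4 of 5 Control libraries the level was under the lowest BGN library, and Control replicate 4 lay within the BGN range. The log2 fold change was 0.33 ± 0.19 (SE), its 95% interval was -0.094 to 0.76 and edgeR's adjusted p 0.945, and it was 0.19 without Control replicate 5.

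For mt-Nd2 the libraries gave 1606, 1570, 1580, 1730 and 1819 CPM in BGN and 1374, 1395, 1561, 1820 and 655 CPM in Control. Control replicate 4 was as high as the highest BGN library, whereas the other 4 Control libraries lay under all BGN ones. The estimate of 0.29 became 0.11 without Control replicate 5. mt-Nd1 gave 2053, 1926, 2008, 2126 and 2236 CPM in BGN libraries and 1804, 1793, 1999, 2226 and 1015 CPM in Control libraries.

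The libraries gave 2317, 2402, 2300.1, 2542 and 2308 CPM of mt-Nd5 in BGN, and 1837, 1989, 2384, 2564 and 1128 CPM in Control. In mt-Nd1 and mt-Nd5 alike, Control replicates 1, 2 and 5 lay under the lowest BGN library and replicates 3 and 4 did not. Their log2 fold changes of 0.23 and 0.26 became 0.083 and 0.11 without Control replicate 5.

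mt-Nd6 is the sole protein-coding gene on the opposite strand. It was at 460, 482, 449, 469 and 440 CPM in BGN and at 408, 357, 445, 483 and 216 CPM in Control. Only Control replicates 3 and 4 reached the BGN range, and the log2 fold change was 0.27, or 0.12 without Control replicate 5. Its end shares 14 bases with mt-Nd5, read from the other strand, and the strand setting of the counting is not given in the sources used here, so sense and antisense reads of this region cannot be told apart. The libraries held between 5 and 26 counts of mt-Nd3 and between 4 and 21 of mt-Nd4l. Their log2 fold changes were 0.29, with a 95% interval of -0.32 to 0.90, and 0.24, with one of -0.54 to 1.03. Single libraries moved both: that of mt-Nd3 was 0.068 without Control replicate 5 and 0.52 without Control replicate 3, and that of mt-Nd4l was 0.0016 without BGN replicate 5, 0.44 without BGN replicate 2 and 0.49 without Control replicate 4.

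The single complex III member, mt-Cytb, was at 3143, 3249, 3052, 3373 and 3571 CPM in BGN and at 2603, 2615, 3048, 3535 and 1619 CPM in Control. Control replicate 3 lay just under the lowest BGN library and replicate 4 just under the highest. The log2 fold change was 0.29 ± 0.18 (SE, adjusted p = 0.945 by edgeR), and 0.15 without Control replicate 5.

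Of the 3 complex IV subunits, mt-Co1 reached 10238, 10598, 10154, 10313 and 9328 CPM in the BGN libraries and 8260, 9106, 10058, 10101 and 5725 CPM in Control. In BGN 4 of 5 libraries lay above the highest Control library, and BGN replicate 5 lay under Control replicates 3 and 4. Its log2 fold change was 0.23 with a 95% interval of -0.11 to 0.56, and 0.11 without Control replicate 5. mt-Co2 was at 35.1, 38.4, 30.4, 33.3 and 31.4 CPM in BGN and at 26.8, 26.9, 31.6, 32.3 and 19.1 CPM in Control. The groups overlapped through Control replicates 3 and 4, and the log2 fold change was 0.30 ± 0.12 (SE, 95% interval 0.027 to 0.57, unadjusted p = 0.0341, adjusted p = 0.945 by edgeR). It was 0.20 without Control replicate 5. mt-Co3 had the smallest protein-coding estimate, 0.14, at mean levels of 19.8 ± 1.48 CPM in BGN and 18.0 ± 4.27 CPM in Control, and only Control replicate 5 lay under all BGN libraries.

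The ATP synthase subunits mt-Atp6 and mt-Atp8 had log2 fold changes of 0.25 and 0.22, or 0.069 and 0.027 without Control replicate 5. mt-Atp6 was at 17.9, 17.8, 19.1, 19.6 and 19.4 CPM in BGN and at 15.1, 16.5, 20.2, 19.9 and 7.25 CPM in Control. All 5 BGN libraries thus lay between the Control extremes. The 6 pseudogenes listed as nuclear copies had estimates above 0, with 0 called by edgeR, 1 at an unadjusted p under 0.05 (Gm28439, 0.46) and a median log2 fold change of 0.26. Without Control replicate 5 that median was 0.14. Among all tested genes 48.0% lay above 0 and 4.81% had such a p. Reads of these copies and of the mt genes can be indistinguishable, so the pseudogene estimates cannot be taken as independent of those of the mt genes.

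**Figure D2:**
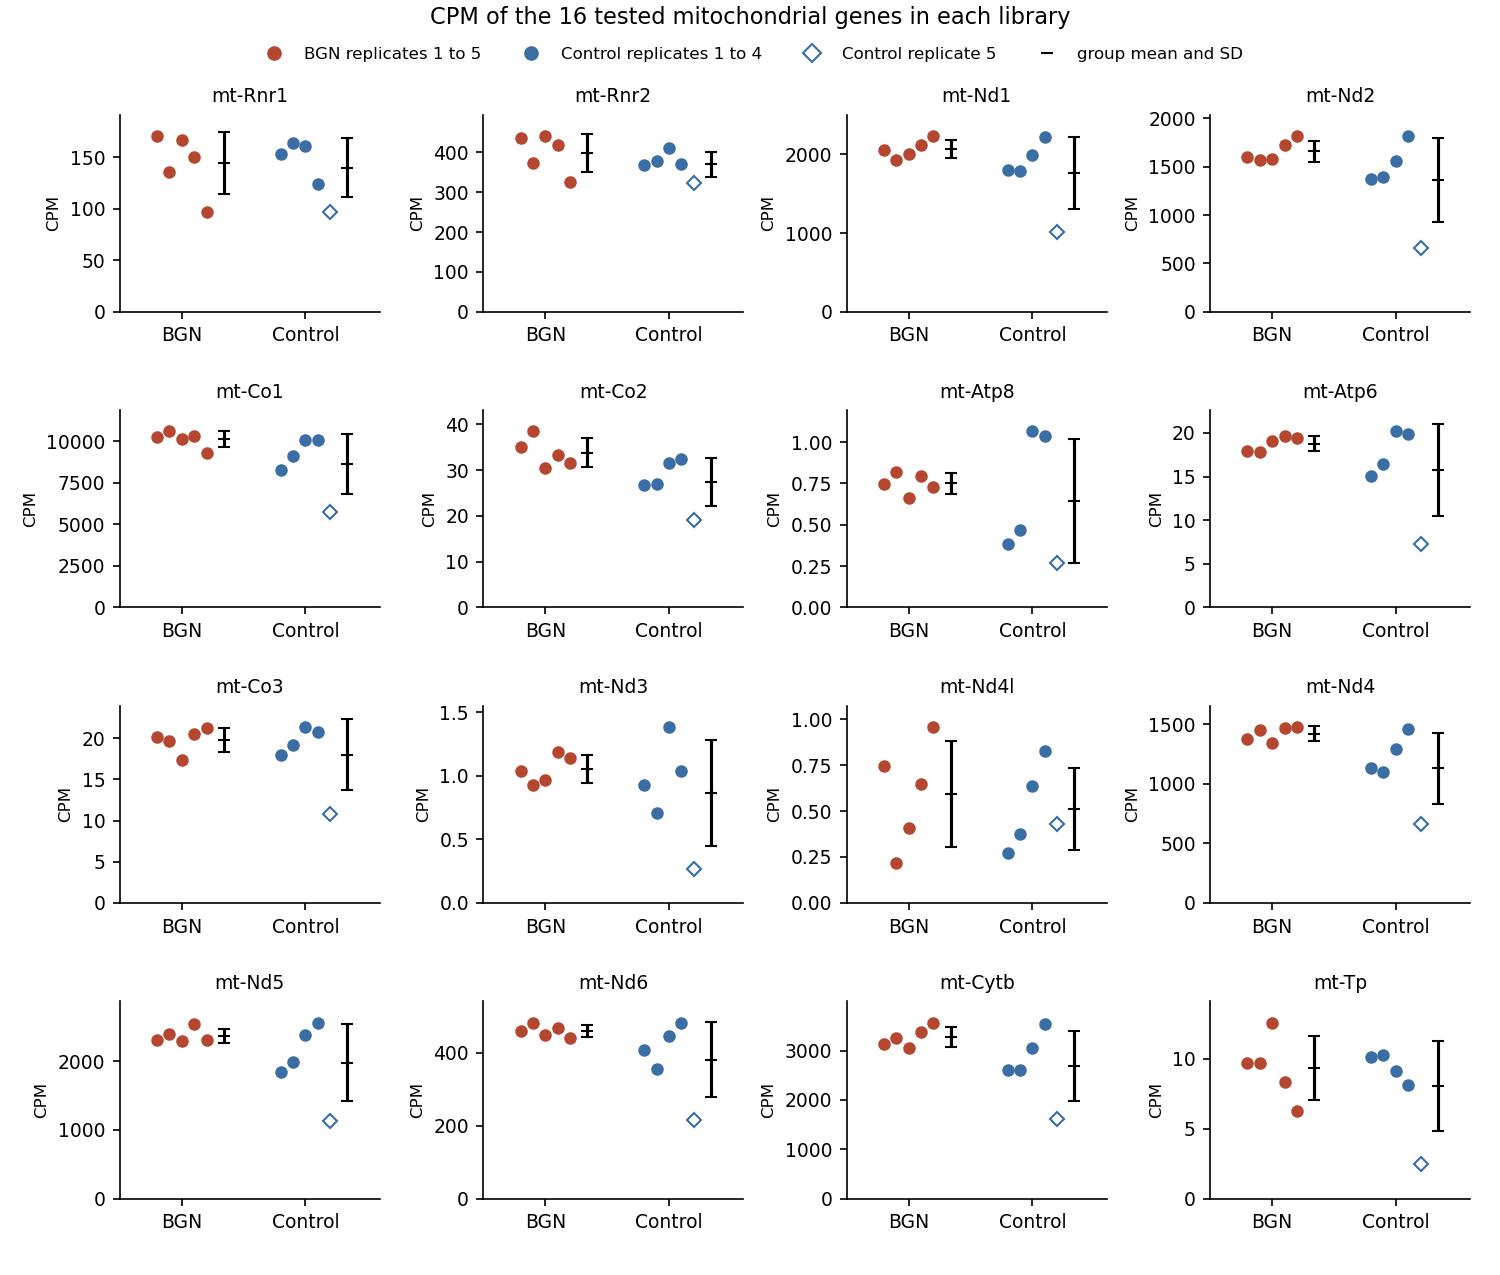
CPM (scaled by TMM, each axis from 0) of the 16 tested mitochondrial genes, with BGN replicates 1 to 5 and Control replicates 1 to 5 from left to right, and the group mean with SD as a bar. The open diamond, Control replicate 5, is the lowest library for 15 of the 16 genes, mt-Nd4l being the exception.

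**Figure D3:**
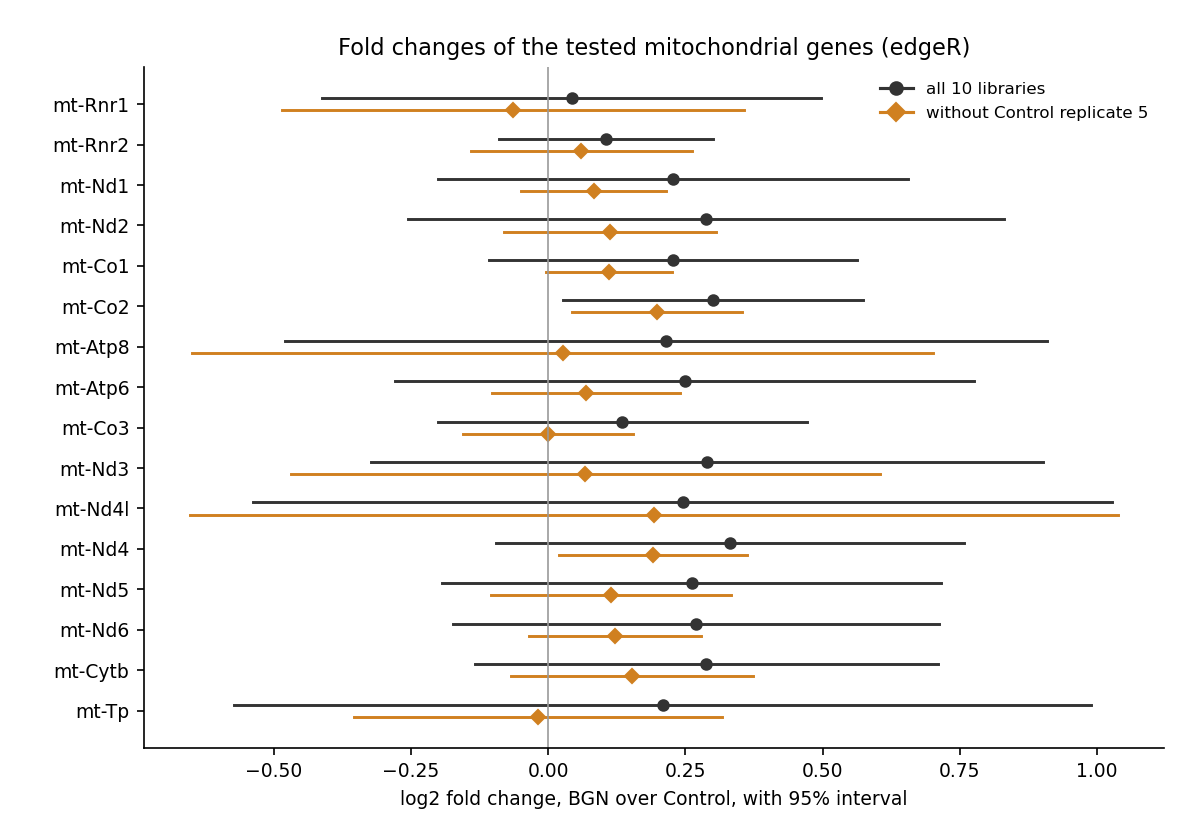
Log2 fold change (BGN over Control) with its 95% interval for the 16 tested genes, from all 10 libraries (circles) and without Control replicate 5 (diamonds). With all libraries the interval of mt-Co2 alone lies above 0, and without Control replicate 5 those of mt-Co2 and mt-Nd4 do. The intervals are not adjusted for the number of genes. In these 2 edgeR fits 4.81% and 5.07% of all tested genes had an unadjusted p under 0.05, and 0 were called.

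Control replicate 5 had the lowest protein-coding share of all libraries, though that share did not pass the outlier criterion given under the flagged results. Protein-coding mt genes held 2.12%, 2.17%, 2.07%, 2.199% and 2.14% of all counts in BGN replicates 1 to 5, and 1.75%, 1.85%, 2.07%, 2.22% and 1.11% in Control replicates 1 to 5. The 95% Wilson intervals of these shares, which cover counting error only, extend at most 0.00668 percentage points to each side. The mean share was 2.14 ± 0.0476% in BGN and 1.801 ± 0.427% in Control, or 1.97 ± 0.213% in Control without replicate 5. Control libraries were more variable than BGN libraries in 12 of the 13 genes by SD, and in 11 of 13 without replicate 5.

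The lower level in Control replicate 5 was not the same for all genes. Relative to the mean of the other 4 Control libraries, its level was 26.5% for mt-Nd3, 40.5% for mt-Atp6 and 42.6% for mt-Nd2, and 51.9% as the median over the 13 genes. It was 61.0% for mt-Co1, 65.1% for mt-Co2 and 81.3% for mt-Nd4l. In this library mt-Nd3 had 5 and mt-Nd4l 8 counts. Among the ribosomal RNAs it was 64.2% for mt-Rnr1 and 84.5% for mt-Rnr2. The pseudogene copies differed too, at 30.2% for Gm28438, 43.2% for Gm10925 and 50.1% for Gm28439, and at 79.4% for Gm28661, 82.8% for Gm28437 and 86.8% for Gm29216.

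Of 9 marker sums, in CPM of library totals, some were high in that library and others were not. Single markers are given in CPM scaled by TMM. The 15 epithelial markers summed to between 11283 and 11904 in BGN and between 11589.7 and 12891 in Control, where replicate 5 was highest. In that library Krt14 was at 4322 CPM against a Control mean of 3745, whereas Csn3 was at 730 against 1123. Trp63, Cldn4 and Acta2 were also under their Control means there, and the other listed epithelial markers were over theirs. Of 13 myeloid markers 10 had counts and Adgre1, C1qa and C1qb had none, and the sum was 404 to 436 in BGN and 400.4 to 466.8 in Control, again highest in replicate 5. Cd14 made up most of that highest sum and was at 445.6 CPM in replicate 5. Cd163, at 14.1, and Cd68, at 1.18, were under their Control means of 17.2 and 1.62 there. All 11 adipocyte markers had counts and summed to between 21.04 and 24.3 in BGN and between 21.9 and 26.9 in Control, with replicate 5 highest. Of 12 fibroblast markers 11 had counts and Dpt had none, with sums of 2102 to 2724 in BGN and 1626 to 2523 in Control, where replicate 5 was the highest Control. In that library Postn was at 2213 CPM, Col6a1 at 235 and Pdgfra at 49.1, while Col1a1 was at 5.75 and the other listed fibroblast markers were lower. For 12 lymphocyte markers, of which 8 had no count, Control replicate 5 had the lowest Control sum, 1.78. Its sums of skeletal muscle markers (4.54) and of nuclear-retained RNAs (1008) lay within the range of the other Control libraries. The sum over 12 endothelial markers, of which Cldn5 had no count, had the smallest p between the groups. It was 21.4 to 25.8 in BGN and 24.6 to 26.4 in Control (two-sided exact permutation test, p = 0.0238, or 0.214 after adjustment over the 9 sums). The part of these transcripts in the mitochondrial levels was not tested.

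**Figure D4:**
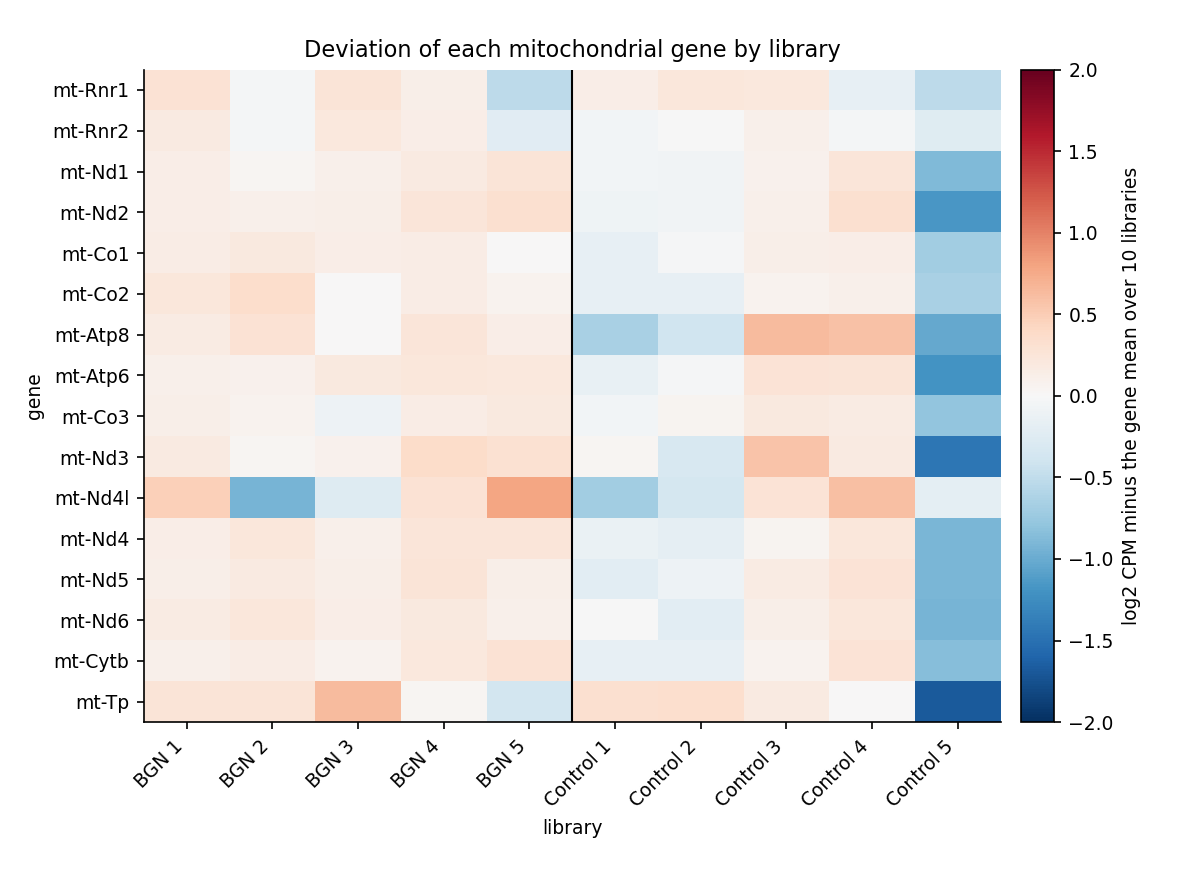
Log2 CPM minus the mean of the gene over the 10 libraries, for the 16 tested mitochondrial genes (rows, in genome order) and libraries (columns, BGN left of the line). Control replicate 5 is below 0 for all 16 genes, and BGN replicate 5 is below 0 for both ribosomal RNAs and mt-Tp but above 0 for the 13 protein-coding genes.

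For each protein-coding gene, the share of the protein-coding mt counts varied less across the libraries than the CPM of that gene. These are shares of counts as assigned, and they may differ from shares of RNA. The 5 genes that lie almost wholly in near-identical pseudogenes held 0.345% of these counts, and their levels and that of mt-Atp8 are uncertain. mt-Co1 held 47.2 ± 2.00% of the protein-coding mt counts in BGN and 48.4 ± 2.40% in Control, with its lowest share, 43.9%, in BGN replicate 5 and its highest, 51.8%, in Control replicate 5. mt-Cytb held 15.3 ± 0.892% in BGN and 14.8 ± 0.629% in Control. The complex I genes together held 37.2 ± 1.16% in BGN and 36.4 ± 1.97% in Control, and both ATP synthase genes together 0.0909 ± 0.00405% in BGN and 0.0888 ± 0.0126% in Control. For no gene were the groups' shares without overlap. Across the 10 libraries the coefficient of variation of mt-Co1 was 15.6% for CPM and 4.56% for the share. That of mt-Nd5 was 19.8% for CPM and 3.89% for the share. These genes had the lowest variation in share. The highest was in the genes with few counts, at 40.3% for mt-Nd4l, 27.1% for mt-Atp8 and 23.5% for mt-Nd3. For CPM these were 44.8%, 37.4% and 31.5%.

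The ribosomal RNAs, which form the core of the mitochondrial ribosome, were lowest in replicate 5 of both groups. mt-Rnr1, of the small subunit, was at 171, 135, 167, 151 and 96.6 CPM in BGN and at 153, 164, 161, 124 and 96.6 CPM in Control. mt-Rnr2, of the large subunit, was at 435, 372, 441, 417 and 326 CPM in BGN and at 369, 378, 410, 371 and 323 CPM in Control. In the other 8 libraries the groups overlapped in both genes. Log2 fold changes were 0.043 ± 0.20 and 0.11 ± 0.088 (SE), with adjusted p of 0.993 and 0.963 by edgeR. Without Control replicate 5, that of mt-Rnr1 was -0.064 and that of mt-Rnr2 0.061. Without BGN replicate 5, that of mt-Rnr2 was 0.17 (unadjusted p = 0.0120, adjusted p = 0.883 by edgeR). In that fit 5.4% of all tested genes had an unadjusted p under 0.05.

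Relative to the messengers, ribosomal RNA ranged from 1.99 counts per 100 protein-coding mt counts in BGN replicate 5 to 3.79 in Control replicate 5. The group values were 2.53 ± 0.380 in BGN and 2.94 ± 0.567 in Control and overlapped. BGN replicate 5 thus combined a protein-coding share of 2.14%, within the BGN range, with the lowest ribosomal RNA levels of its group. The ratio of mt-Rnr2 to mt-Rnr1 was 3.37 in BGN replicate 5 and 3.34 in Control replicate 5, and 2.31 to 2.98 in the other 8 libraries.

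**Figure D5:**
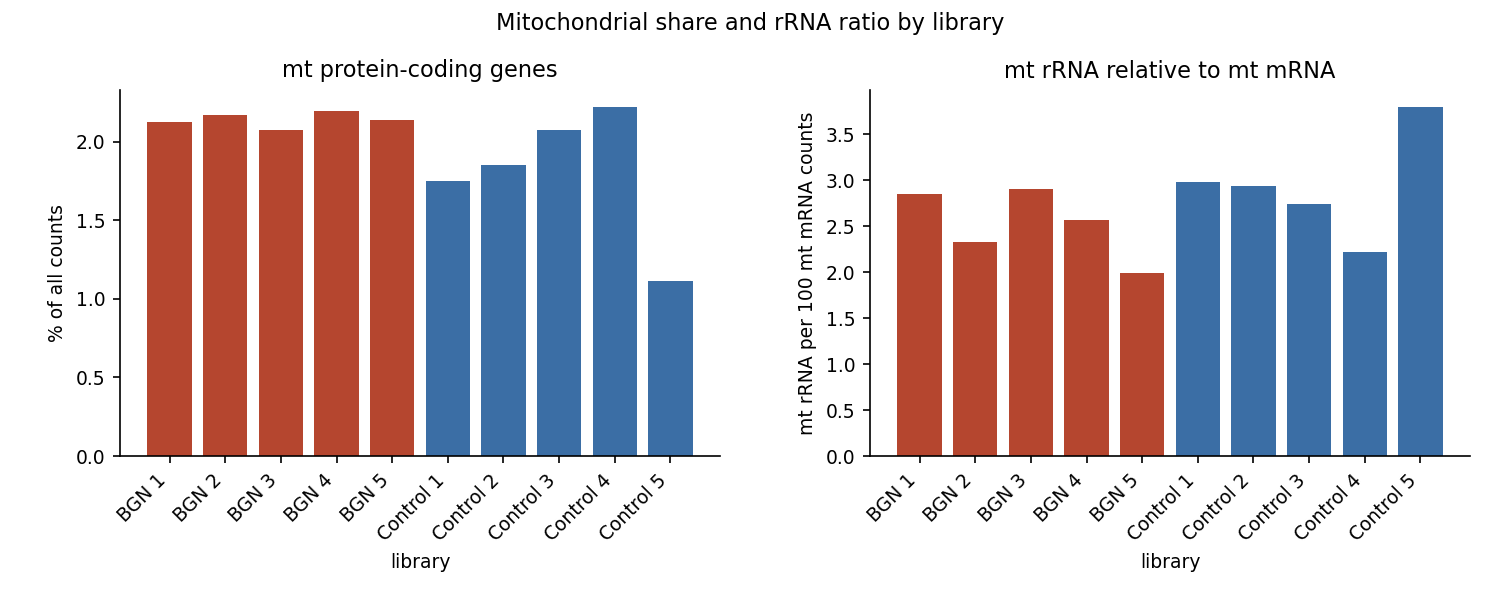
Left, percent of all counts on the 13 mt protein-coding genes. Right, mt ribosomal RNA counts per 100 mt protein-coding counts; bars are single libraries, BGN left of Control. Control replicate 5 has the lowest share, 1.11%, and the highest ratio, 3.79, while BGN replicate 5 has the lowest ratio, 1.99.

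Transfer RNAs were nearly absent from the counts. Of 22 genes 20 had no count in any library, where a count of 0 allows up to 0.137 to 0.164 CPM per library (3 counts), a limit for counting error only. mt-Tc, for cysteine, had 0 to 3 counts per library and 7 in all, of which 6 were in BGN and 1 in Control. mt-Tp, for proline, was the exception with 1707 counts, and its transcript sequence is shown for that reason.
mt-Tp: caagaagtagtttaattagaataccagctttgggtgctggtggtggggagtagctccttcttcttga

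mt-Tp was at 9.72, 9.74, 12.6, 8.33 and 6.29 CPM in BGN and at 10.1, 10.3, 9.15, 8.12 and 2.47 CPM in Control. Replicate 5 was the lowest of each group, as for the ribosomal RNAs. The log2 fold change was 0.21 with a 95% interval of -0.57 to 0.99, and -0.018 without Control replicate 5. mt-Tp is annotated on the strand opposite to mt-Cytb and mt-Rnr1, and without a known strand setting its reads cannot be assigned to either strand.

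Nuclear genes that act on mitochondrial RNA had estimates close to 0. Of 9 genes for mitochondrial transcription 0 were called by edgeR and 0 had an unadjusted p under 0.05, against 4.81% of all tested genes (median log2 fold change of the 9 genes 0.022). Relative to each gene's mean log2 CPM over the 10 libraries, these 9 genes averaged -0.056 in Control replicate 5, the lowest of the 10 libraries (the others -0.029 to 0.047). The 13 protein-coding mt genes averaged -0.90 there. Polrmt, which encodes the mitochondrial RNA polymerase, averaged 19.5 ± 0.941 CPM in BGN and 19.2 ± 1.55 CPM in Control, and the 95% interval of its log2 fold change was -0.12 to 0.17. Tfam, whose product packages mitochondrial DNA and activates its transcription, averaged 64.3 ± 2.15 CPM in BGN and 64.5 ± 2.87 CPM in Control, and its interval was -0.10 to 0.091.

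Of 33 genes for the processing and stability of mitochondrial RNA, 0 were called by edgeR and 0 had an unadjusted p under 0.05 (17 above and 16 below 0, median 0.012). Lrpprc and Slirp, whose products form a complex that stabilises mitochondrial messengers, differed little between the groups. The log2 fold change of Lrpprc was -0.0067 (95% interval -0.11 to 0.098) and that of Slirp -0.044 (-0.19 to 0.11), with adjusted p of 0.994 and 0.982 by edgeR. In Control replicate 5 Lrpprc was at 109.5% and Slirp at 93.1% of the mean of the other Control libraries. The lists for mitochondrial DNA upkeep (14 tested, median -0.047), biogenesis regulators (12, -0.0012), mitophagy (13, -0.031) and mitochondrial stress (16, -0.025) also held 0 called genes by edgeR. They held 1, 0, 0 and 2 genes at an unadjusted p under 0.05, where 4.81% of all tested genes had such a p. Estimates above and below 0 numbered 2 and 12 for DNA upkeep and 6 and 6 for biogenesis regulators. They numbered 4 and 9 for mitophagy and 5 and 11 for mitochondrial stress, where 48.0% of all tested genes lay above 0. The DNA upkeep genes averaged 0.098 above their mean log2 CPM in Control replicate 5, the highest of the 10 libraries (the others -0.058 to 0.063).

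The nuclear genes for subunits of the same respiratory complexes had estimates mostly below 0. Of 78 tested 0 were called by edgeR and 7 had an unadjusted p under 0.05, while 9 estimates lay above and 69 below 0 (median -0.048). Of all tested genes 4.81% had such a p and 48.0% lay above 0. The median of the 78 was between -0.067 (without Control replicate 2) and -0.020 (without Control replicate 1) when single libraries were left out. In Control replicate 5 they averaged 0.11 above their mean log2 CPM, and Control replicate 1, at 0.14, was the single library above that. Control replicates 2, 3 and 4 were at -0.054, -0.035 and -0.017, within the BGN range of -0.060 to 0.029. The 13 protein-coding mt genes averaged -0.90 in Control replicate 5 and -0.19 to 0.28 in the other 9 libraries.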

How the data were processed

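The authors deposited raw counts for each gene symbol in each sample. Per the labels' protocols, the libraries were poly-A selected (NEBNext Ultra) from TRIzol-extracted, DNase-treated RNA. Per the submitters' processing notes, the tools were HISAT2 2.2.1, HTSeq, cutadapt 1.9.1, FastQC and DESeq2 with build GRCm39. The sources used here name no annotation release, strand setting or handling of reads with several alignments. Genes were kept by filterByExpr (14415 tested), scaled by TMM, and fitted in R 4.3.3 by edgeR 4.0.16 (robust quasi-likelihood, treatment as the single term), with a call at an adjusted p under 0.05; DESeq2 1.42.0 and limma 3.58.1 were alternatives. Each SE is the absolute log2 fold change over the root of F. Log2 CPM used a prior count of 2. The fit was run on simulated counts in which genes varied independently. That simulation does not cover genes that vary together, as the mt members do. Every library pair differed beyond sampling noise (chi-square per degree of freedom 2.43 to 20.8). Lengths and sequences are of GENCODE M21 transcripts, compared with blastn 2.17.0. Named were all mt members with counts, Polrmt, Tfam, Lrpprc, Slirp and listed nuclear copies. Members and lists were chosen with earlier results of these data known.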

Additional observations from a re-analysis of the deposited data

Results flagged for a closer look

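In each group of 5 libraries, the highest and lowest value was set against the group's range (Dixon's 95% value for 5 samples, 0.71) for 51 measures, or 102 groups. In 5 groups 1 library stood out, and chance gives about 1 in 20, or 5.1 here. Control replicate 5 was low for mt-Tp, at 2.47 CPM against 8.12 to 10.3 CPM in the other Control libraries, and accordingly for the transfer RNA share, at 0.000249% of counts against 0.00081% to 0.00103%. BGN replicate 5 had the highest ratio of mt-Rnr2 to mt-Rnr1, 3.37 against 2.55 to 2.77 in the other BGN libraries. Control replicate 1 had 22.2 mt-Nd6 counts per 100 mt-Nd5 counts, against 17.9 to 19.1. In BGN replicate 4, mt-Nd5 held 11.5% of the protein-coding mt counts, against 10.9% to 11.04%. The protein-coding share of Control replicate 5, 1.11%, did not pass this criterion, since Control replicates 1 to 4 also spread from 1.75% to 2.22%.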

How the results depend on the processing

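The count of 0 called mt members held under every alternative run: 3 other scalings and a scaling without the mt members, no or a stricter filter, DESeq2, limma-voom, no robust estimation, the replicate block, leaving out each library, and leaving out both replicates numbered 5. Over all genes 0 were called, except 3 without a filter on low counts. No clear pairing by replicate number was seen (correlations of deviations -0.02 to 0.20, with 1 of 5 samples closest to its own number), but these correlations cannot exclude one. With the number as a block the median protein-coding log2 fold change was 0.31 with 0 members called. In that edgeR fit 3 members had an unadjusted p under 0.05, as did 5.72% of all tested genes. Without single libraries this median lay between 0.11 (without Control replicate 5) and 0.37 (without Control replicate 4), and it was 0.078 without BGN replicate 5 and Control replicate 5. All 13 protein-coding estimates stayed above 0 under the 4 other scalings. Estimates turned sign for mt-Rnr1 without BGN replicate 1 (-0.026), BGN replicate 3 (-0.016) or Control replicate 5 (-0.064), for mt-Tp without Control replicate 5 (-0.018), for mt-Co3 without Control replicate 5 (-0.0011) or both replicates 5 (-0.027), and for mt-Nd4l without both (-0.051). Without single libraries the highest values of mt-Rnr1, mt-Tp and mt-Co3 were 0.16, 0.33 and 0.20. Near 0, Tfam turned without BGN replicate 1 (0.014) or 2 (4.25e-06), Control replicate 5 (0.014) or both replicates 5 (0.0038), Lrpprc without BGN replicate 1 (0.018) or 3 (0.000700) or Control replicate 4 (0.016) or 5 (0.021), and Polrmt without Control replicate 1 (-0.0053) or 2 (-0.0026); the opposite ends over single libraries were -0.031, -0.034 and 0.055. The causes were not tested. Depth limits mt-Nd3, mt-Nd4l and mt-Atp8, with under 30 counts per library.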

Other observations

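Other chromosomes hold more diverged copies, to which few counts were assigned. Gm13340 had 408 counts over the 10 libraries, Gm13341 (chromosome 2, 95.9% identical to mt-Co2) 86, Gm4076 (chromosome 13, 95.2% identical to 954 bases of mt-Nd5) 66, and Gm11410 (chromosome 4, 92.9% identical to mt-Cytb) 3, against 588090 for mt-Cytb itself.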
